A study of Saccharomyces cerevisiae with 24 samples.

Results

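The genes described here are the ORFs that lie near a centromere in the genome annotation that the authors built for the yeast strain W303. An ORF was taken as a member when its midpoint lay within 20000 bp of the midpoint of the centromere feature of the same chromosome. The rule used positions only, and it found 309 of 5613 nuclear ORFs on 16 chromosomes, which is 5.51%. They were set against 4297 ORFs of the chromosome arms, here meaning all sequence more than 50000 bp from both the centromere and the chromosome ends.

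The study is a ChIP-seq of FLAG-tagged Uls1, an ATP-dependent enzyme of the Snf2 family, and of HA-tagged Top2, the type II DNA topoisomerase. It used W303 cells that carry trp1-1 among other marker alleles. FLAG-Uls1 was studied in wild-type (WT) cells with 100 µM acriflavine (ACF), a Top2 poison, and without it. HA-Top2 was studied with 250 µM ACF and without it in uls1Δ cells and in WT cells, all of which held the tagged copy (KAN marker) beside the untagged TOP2 gene and a NAT cassette upstream of it. FLAG-ULS1 stood at the uls1 locus with a TRP1 marker, and the deletion was uls1::URA3. Exposure was for 2 h, and IP and input libraries make 24 libraries in 12 groups of 2, with 4 ChIP replicates pooled into 2 for each Top2 condition. No library carries a value in the analysed file, so binding of Top2 or Uls1 near centromeres was not analysed here.

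Budding yeast has point centromeres, in which a short sequence with the elements CDEI, CDEII and CDEIII holds a single specialised nucleosome and the kinetochore. CDEI is bound by Cbf1, CDEII is a stretch rich in A and T that wraps the Cse4 nucleosome, and CDEIII is bound by the CBF3 complex. The surrounding chromatin is loaded with cohesin and condensin and is under tension in mitosis. Genes continue close to the centromere on both sides, unlike in organisms with long repeat arrays.

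The centromere sequences show what each window is centred on. The W303 sequence was not used here, so the sequences below come from the S288C reference genome of RefSeq, build R64, at its own coordinates. Each is read on the plus strand from CDEI to CDEIII, with both of these elements in capitals and CDEII in lower case between them. CEN6 is shown because its feature in the W303 annotation is shortened, and CEN2 and CEN9 because the W303 annotation places an origin consensus inside them.
CEN2 (chr2:238207-238323): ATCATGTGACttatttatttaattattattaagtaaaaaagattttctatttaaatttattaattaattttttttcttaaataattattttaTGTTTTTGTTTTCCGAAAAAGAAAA
CEN6 (chr6:148510-148627): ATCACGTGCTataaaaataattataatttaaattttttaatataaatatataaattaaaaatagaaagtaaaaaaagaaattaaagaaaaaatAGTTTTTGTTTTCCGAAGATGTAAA
CEN9 (chr9:355629-355745): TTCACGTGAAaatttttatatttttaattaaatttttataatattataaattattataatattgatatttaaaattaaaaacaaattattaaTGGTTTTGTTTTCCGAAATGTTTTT

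In S288C, CDEII had between 76 and 85 bp, and its A and T content lay between 86.9% and 97.6% over the 16 centromeres, against 61.7% for the nuclear genome. The letters TCACNTG of CDEI stood on the strand read above in 15 of 16 CDEI elements. In CEN2 the match was on the opposite strand, so all 16 centromeres held these letters when both strands were searched. The letters TCCGAA stood in the CDEIII of 15 of 16 centromeres. Among 102292 genome windows of 118 bp, searched on both strands, 4.00% held TCACNTG and 3.77% held TCCGAA. The W303 annotation gave 15 centromere features between 111 and 120 bp, each as long as its S288C counterpart, and 1 feature of 12 bp, which is CEN6.

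**Figure D1:**
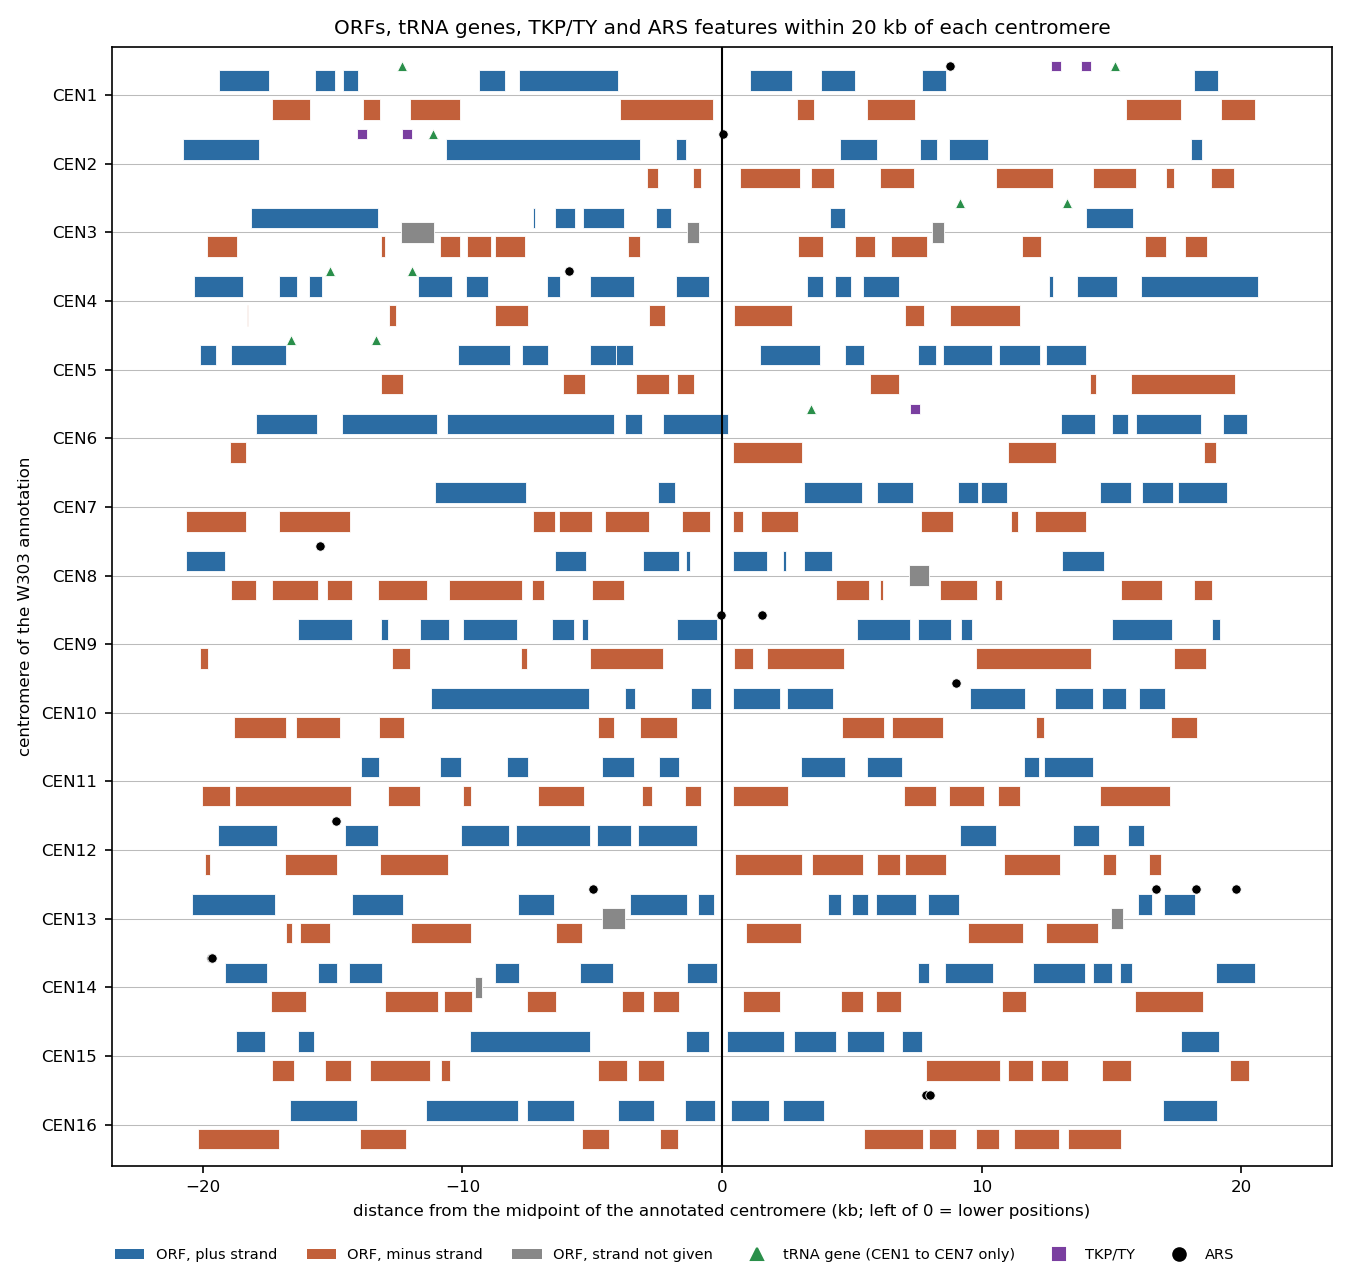
All 309 member ORFs as boxes to scale, by distance in kb from the midpoint of the annotated centromere (x axis) for each of the 16 centromeres (rows), with plus strand ORFs in blue above the line, minus strand ORFs in orange below it and ORFs without a strand in grey on it. Markers show 10 tRNA genes (CEN1 to CEN7 only), 5 TKP/TY and 16 ARS features, and the CEN6 position is the only one that falls inside an ORF, VTC2.

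The CEN6 feature did not lie where the gene order of the other centromeres would put it. It spans 141316 to 141327 on chromosome 6 of the W303 assembly, inside VTC2, a subunit of the vacuolar polyphosphate polymerase complex, whose ORF runs from 139053 to 141539. At the other 15 centromeres the left neighbour carried a left arm name (L in the systematic name) and the right neighbour a right arm name. On chromosome 6, MSH4 (meiotic crossing over), SPB4 (a helicase of ribosome assembly) and DEG1 (a tRNA pseudouridine synthase) carry left arm names and lay to the right of the feature. These were the 3 exceptions among 308 members with a systematic name, and for the other 305 the name gave the arm on which the ORF lay. In S288C, CEN6 lies between DEG1 and LOC1, a gene of ribosome assembly and mRNA localisation. The gap between these genes was 650 bp in both annotations, from 155702 to 156353 in W303, and all 13 ORFs from BLM10 to YFH7 stood at the same distances from DEG1 in both. Measured from its own centromere, every chromosome 6 member stood 14490 bp further to the right in W303 than in S288C. Outside chromosome 6, 226 of 295 members lay within 100 bp of their S288C distance, 181 of them at exactly the same distance.

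**Figure D2:**
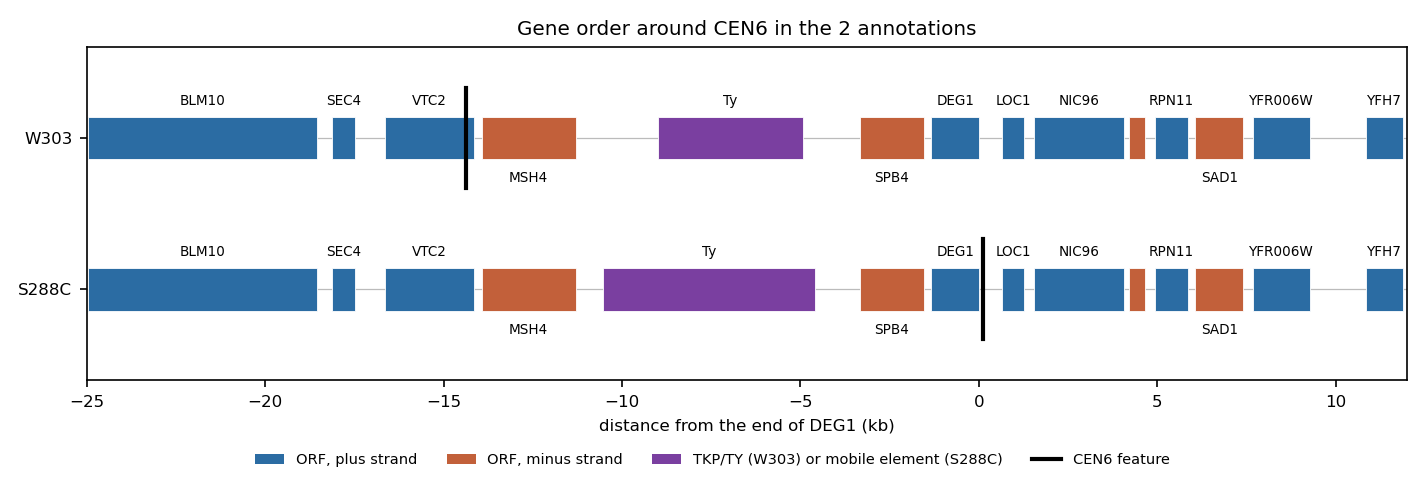
ORFs of chromosome 6 to scale, by distance in kb from the end of DEG1 (x axis), in the W303 annotation (upper row) and in S288C (lower row), with the Ty element in purple and the CEN6 feature as a black bar. The 13 ORFs coincide, and the CEN6 bar stands in VTC2 in W303 and in the 650 bp between DEG1 and LOC1 in S288C.

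The rule was applied to the feature as annotated, which gave chromosome 6 the fewest members, 13. With CEN6 placed at the middle of the gap between DEG1 and LOC1, a choice made after seeing the data, the window held 17 ORFs, as in S288C, and 9 of them were shared. It then lost WWM1, CDC4 (an F-box protein of the SCF ubiquitin ligase), SMC1 (a cohesin subunit) and BLM10 (a proteasome activator). It gained 8 right arm genes from SAD1, a splicing factor, to DCV1. The total would be 313 members. No comparison with the arms crossed an adjusted p of 0.05 through this change, and none changed its direction.

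NUP60 (nuclear pore) and TFC3 (a subunit of TFIIIC) flank CEN1, and the trehalase genes NTH2 and NTH1 lie on the right of CEN2 and CEN4, beside ECM15 and RMD1. CEN3 lies between an ORF without a strand that the file names YCL001W-B and CDC10, a septin. The length of that feature, 462 bp, and its midpoint, 1132.5 bp left of CEN3, are those of YCL001W-A in S288C, where YCL001W-B has 255 bp and lies 546 bp left of CEN3. CEN5 lies between IRC22 and MNN1, a mannosyltransferase, and CEN7 between ERG26 (sterol synthesis) and EFM5 (methylation of elongation factor 1A). RPL14B, a ribosomal protein, and OSH7, an oxysterol-binding protein, flank CEN8. YIL001W and SGN1, an RNA-binding protein, flank CEN9, and PRE3 (a proteasome subunit) and AVT1 (a vacuolar amino acid transporter) flank CEN10. MET14, the adenylylsulphate kinase gene used as a classical centromere-linked marker, and VPS1, a dynamin-like GTPase, flank CEN11. DNM1, a dynamin-related GTPase of mitochondrial fission, and YLR001C flank CEN12. YPT7, a vacuolar Rab GTPase, and CDC5, the polo kinase of mitosis, flank CEN13. DOM34 (ribosome rescue) and CIT1 (mitochondrial citrate synthase) flank CEN14, the cyclin PHO80 and the exosome nuclease RRP6 flank CEN15, and the histone acetyltransferase HAT1 and the citrate synthase CIT3 flank CEN16.

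The space between the ORFs that flank a centromere was long compared with a usual gap. Over the 15 centromeres other than CEN6 it had 647 bp at the least (CEN16), 1218 bp at the median and 3838 bp at the most (CEN3), each including the centromere itself. The median gap between neighbouring ORFs of the arms lay between 236.5 and 495 bp by chromosome, and all 15 centromere gaps were longer than that of their own arms. Of the arm gaps of the same chromosome, between 1.54% (CEN3) and 25.5% (CEN16) were longer still, with a median of 9.05%. At CEN3 the S288C gap is 1660 bp, because YCL001W-B and YCR001W lie there in the S288C annotation and no W303 feature stands at either place. The next longest W303 gap was that of CEN5, with 2541 bp. This is a description, since a point is more likely to fall in a long gap than in a short one. The flanking ORFs were convergent at 5 centromeres, divergent at 2 and on the same strand at 7, and at CEN3 one has no strand. At 14 centromeres the same ORFs flank the centromere in S288C, and at 9 of these the gap had the same length to the base. At CEN8 the gap was 677 bp longer in W303, which equals the amount by which the RPL14B feature is shorter.

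Gene density near centromeres did not differ from that of the arms beyond the spread between chromosomes. The windows held 4.83 ± 0.669 ORFs per 10 kb, against 4.73 ± 0.249 in the arms (mean ± SD, n = 16 chromosomes). The difference was 0.0965 ± 0.158 (SE), with more ORFs in the window on 11 chromosomes and fewer on 5 (permutation p = 0.546, adjusted p = 0.781). Each test here is a two-sided permutation test over all sign changes of the paired differences of chromosomes (exact enumeration), and p-values were adjusted over 11 tests by the Benjamini-Hochberg method. The number of members was 13 at CEN6, 20 at the median chromosome and 24 at CEN14. Density had the larger SD in the windows, which have 40000 bp each, against a median of 577859.5 bp for the arms of a chromosome. Spread at equal size was not compared.

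ORFs covered a smaller share of the bases near centromeres, but in W303 the difference did not pass the adjusted threshold of 0.05. Coverage was 67.3 ± 5.21% in the windows and 71.9 ± 3.12% in the arms (SD, n = 16). The difference of -4.61 ± 1.58 percentage points (SE) was negative on 11 of 16 chromosomes (permutation p = 0.0120, adjusted p = 0.132). Window values ran from 58.3% at CEN3 through a median of 68.3% to 74.8% at CEN16, against 66.5% to 80.0% for the arms, so the groups overlapped. Leaving out chromosome 16, whose window is the fullest, gave -5.35 points and an adjusted p of 0.0356, which passes the threshold. In S288C, in its own coordinates, coverage was 68.4 ± 5.96% in the windows and 74.2 ± 3.43% in the arms (permutation p = 0.0125, adjusted p = 0.0417). S288C p-values were adjusted over the 10 tests that could be made there. With 1 S288C chromosome left out in turn, coverage was lower in the windows each time, with differences of -6.54 to -4.92 points, and 6 of 16 adjusted p-values passed. Those without chromosome 1, 2, 3, 4, 6, 8, 9, 10, 13 or 14 did not, the highest being 0.0834. The median gap between ORFs was 416 ± 100.4 bp in the windows and 372 ± 57.9 bp in the arms, longer on 10 of 16 chromosomes (permutation p = 0.160, adjusted p = 0.588).

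Orientation showed no preference relative to the centromere that exceeded the spread. Of 302 members with a strand, 154 were on the plus strand, and 148 were transcribed away from the centromere. The mean share transcribed away was 48.5 ± 8.95% in the windows and 50.5 ± 4.38% in the arms (SD, n = 16, adjusted p = 0.781), and the plus strand share was 51.3 ± 10.0% in the windows and 49.7 ± 4.28% in the arms (adjusted p = 0.781). Neighbouring ORFs shared a strand in 42.5 ± 11.3% of pairs in the windows and 48.8 ± 4.11% in the arms. That share was lower in the window on 11 of 16 chromosomes (permutation p = 0.0450, adjusted p = 0.247). The lowest value was 18.8% at CEN1, where strands mostly alternate, and the highest 63.2% at CEN8.

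**Figure D3:**
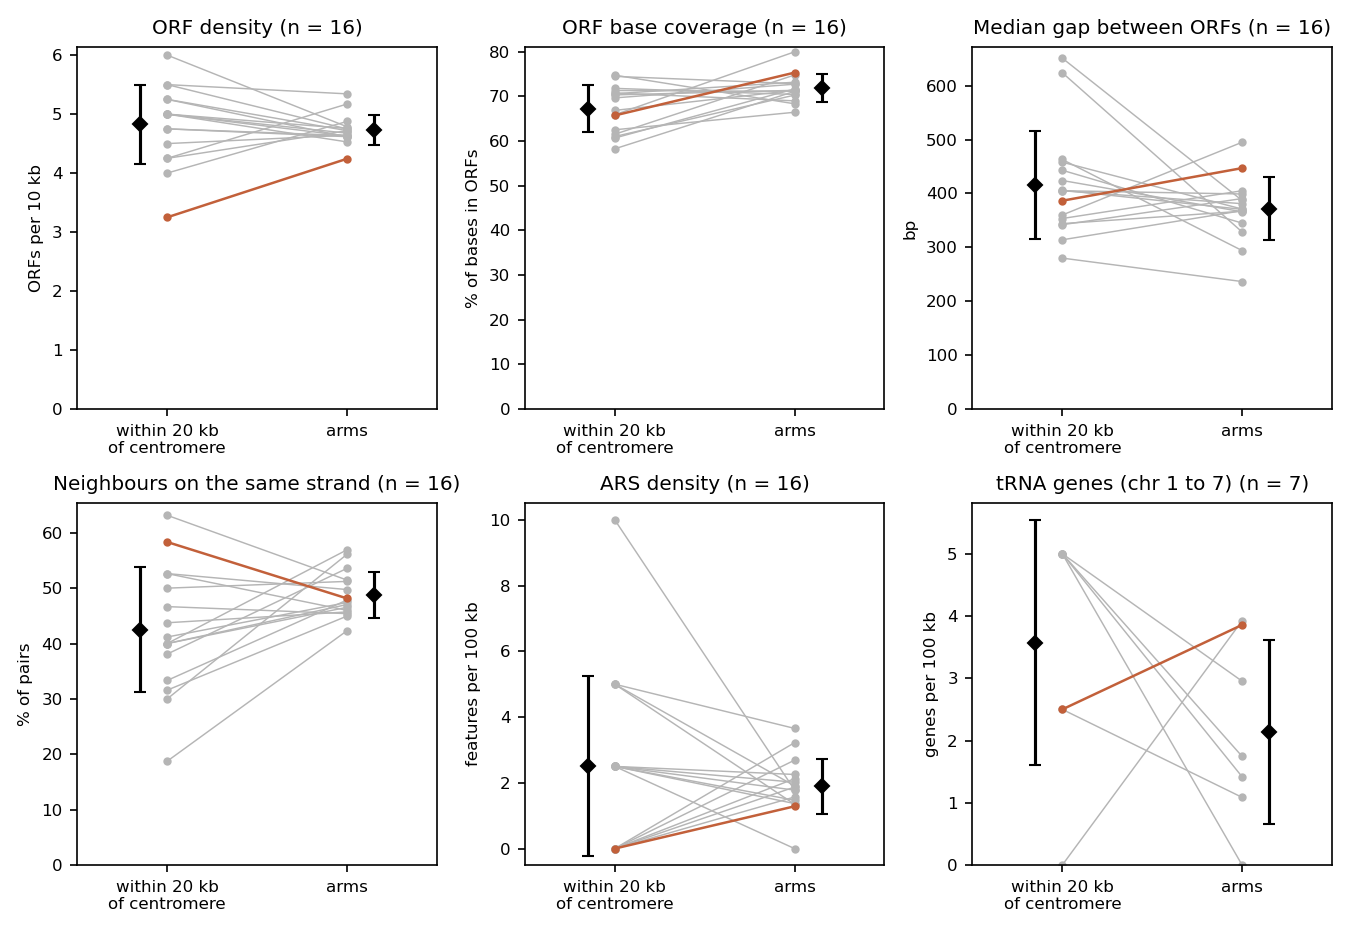
Values of each chromosome within 20 kb of its centromere (left of each panel) and in its arms (right), joined by a line, with chromosome 6 in orange and the mean ± SD as black diamonds, for 6 measures in the units of each y axis. Window values, each from 40000 bp, spread more widely in every panel than arm values, each from 52221 bp or more. ORF base coverage has the lower mean in the windows, 67.3% against 71.9%.

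The length of the members was close to that of the arms. Per chromosome the median ORF length was 1237 ± 285 bp in the windows and 1251 ± 51.0 bp in the arms (SD, n = 16, adjusted p = 0.852). Over all members the median was 1188 bp, with quartiles of 726 and 1860 bp, against 1251 bp over the arm ORFs. The longest members were UTP20 at CEN2 with 7482 bp (assembly of the small ribosomal subunit), BLM10 at CEN6 with 6432 bp, CYR1 at CEN10 with 6081 bp (adenylate cyclase), BUD3 at CEN3 with 4911 bp (bud site selection) and SIN3 at CEN15 with 4611 bp (a histone deacetylase corepressor). All 5 had the same length in S288C. The shortest features were YDL012C with 12 bp, VMA9 with 87 bp (a subunit of the vacuolar ATPase), YCL012C with 129 bp, RPL14B with 138 bp and part of NEM1 with 144 bp (a phosphatase of lipid metabolism). All 5 are longer in S288C, introns included, where YDL012C has 410 bp and RPL14B has 815 bp.

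Most members were well characterised. Of 309, 287 (92.9%) were classed as Verified, 20 as Uncharacterized and 1 as Dubious, with 1 unclassed, and in the arms 92.0% were Verified. The annotation notes whether an ORF has the size of its S288C counterpart, and it marked 26 members as different. The share was 8.13 ± 6.18% by chromosome in the windows and 8.91 ± 2.04% in the arms (SD, n = 16, adjusted p = 0.781). Of these 26, 17 were shorter than the S288C gene and 8 longer, while CDC4 had the same length. Many of the shortened features belong to genes with an intron. S288C lengths given here run from start to stop and include any intron. By this measure 17 of 23 members whose S288C coding sequence is split by an intron were shorter in W303, against 6 of 285 members without one. Of the 17, 15 were also shorter than the joined coding exons. The other 2 were SFT1, whose 294 bp equal the joined exons, and RPL14A, which is shorter than the S288C gene by a single base (814 against 815 bp). The annotation noted 4 of the 17 as of the same size, which are VMA9, TMA20, QCR10 and SFT1. In the arms, 129 of 200 intron genes and 84 of 4090 others were shorter. RPL14B had 138 bp against 815 bp in S288C, MAF1 (a repressor of RNA polymerase III) 717 against 1268 bp, HRB1 (an mRNA-binding protein) 1290 against 1707 bp and BET1 (a vesicle SNARE) 246 against 560 bp. EFB1 and TFC3 at CEN1, PRE3 at CEN10, and DID4 and ECM9 at CEN11 kept their full length, and GIM4 was longer, with 624 against 424 bp.

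The 6 shorter features without an intron belong to TRP1 at CEN4, NEM1 at CEN8 (2 features), SIS1 at CEN14, EST3 at CEN9 and MEH1 at CEN11. TRP1 encodes an enzyme of tryptophan synthesis, is a classical marker of centromere linkage and carries the trp1-1 allele in W303. Its feature spans 461756 to 461905 on the plus strand and has 150 bp, against 675 bp in S288C. NEM1 was split into features of 144 and 768 bp, against 1341 bp in S288C, and SIS1 at CEN14, a J-domain chaperone, had features of 1059 bp, its length in S288C, and 273 bp. EST3 had 282 against 547 bp and MEH1 549 against 555 bp. NEM1 and SIS1 are the 2 of 307 distinct names that were used for 2 features each. The identifiers of 11 members lack the letter suffix of their names, so that VMA9, QCR10 (a subunit of respiratory complex III), TIM10 (a chaperone of mitochondrial import) and YCL001W-B each share an identifier with a neighbour. A single feature, on chromosome 13, has no systematic name, and it has no strand. Its 468 bp and its distance of 15224.5 bp are those of YMR008C-A in S288C. At the edge of the window, YHL012W (19902 bp), TIR2 (19929.5 bp, a cell wall protein) and EST3 (19951.5 bp, a telomerase subunit) were just inside, and CYS3 (20132.5 bp, cysteine synthesis), TDA3 (20174 bp) and NTF2 (20258 bp, nuclear import) just outside.

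The S288C reference placed 329 ORFs in windows of the same size, and 298 of these were members in W303. A further 12 had a W303 feature outside the window, 8 of them the right arm genes of chromosome 6 named above. The other 19 matched no W303 feature by name. At 2 of them, YCL001W-A and YMR008C-A, a W303 feature of the same length stood at the same distance under another name. The remaining 17 were short, from 87 to 408 bp with a median of 315 bp.

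Transfer RNA genes are transcribed by RNA polymerase III, and its factor TFIIIC is known to recruit cohesin and condensin loading factors in yeast. The annotation holds tRNA genes for chromosomes 1 to 7 only, so 7 windows could be examined. They held 10 of the 117 tRNA genes. CEN1 had a proline and an alanine gene, CEN2 a serine gene, CEN3 a proline and an asparagine gene, CEN4 a threonine and a serine gene, CEN5 a lysine and an arginine gene, CEN6 an asparagine gene and CEN7 none. Density was 3.57 ± 1.97 per 100 kb in the windows and 2.14 ± 1.48 in the arms, higher on 5 of 7 chromosomes (exact permutation p = 0.266, adjusted p = 0.730, the smallest p that 7 chromosomes allow being 0.0156). The nearest tRNA gene, at 3444 bp, was the asparagine gene beside the CEN6 feature, and the other 9 lay between 9169.5 and 16584.5 bp from their centromere. From the gap between DEG1 and LOC1 the asparagine gene is 11262 bp away. Only 2 of the 10 lay within 10000 bp. None overlapped an ORF.

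S288C gave the same measure for all 16 chromosomes in its own coordinates. There the windows held 26 of 275 tRNA genes, and 15 of 16 windows had at least 1. Density was 4.06 ± 2.21 per 100 kb in the windows and 2.21 ± 1.01 in the arms, higher on 13 of 16 chromosomes (permutation p = 0.00815, adjusted p = 0.0407). With 1 chromosome left out in turn the difference stayed positive, between 1.49 and 2.22 per 100 kb, and 6 of 16 adjusted p-values passed. Those without chromosome 1, 2, 3, 4, 6, 8, 9, 10, 14 or 16 did not, the highest being 0.0815. Of the 26 genes, 6 lay within 10 kb and 20 between 10 and 20 kb. By bins of 10 kb the density was 1.88 per 100 kb next to the centromere, 6.25 in the second bin and 5.31 in the third, and W303 gave 1.43, 5.71 and 5.00 per 100 kb for chromosomes 1 to 7. In both annotations the bin next to the centromere was thus the poorest of the first 3.

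**Figure D4:**
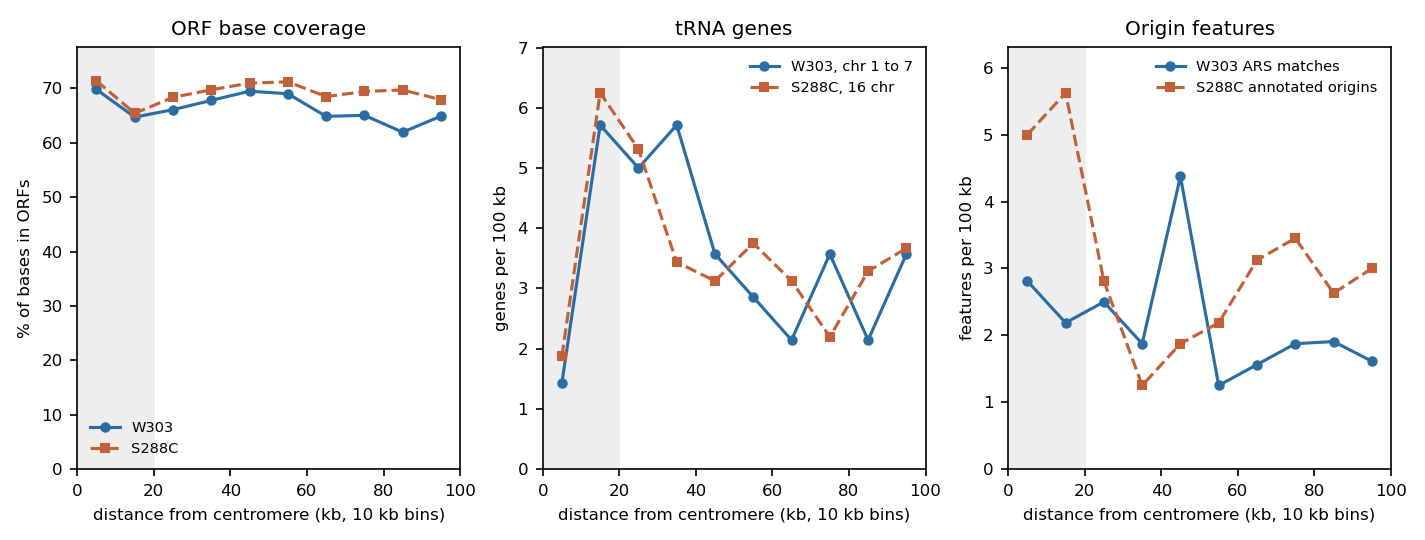
ORF base coverage (left, % of bases), tRNA gene density (middle, genes per 100 kb) and density of origin features (right, per 100 kb) in bins of 10 kb by distance from the centromere, both sides and all chromosomes pooled, for W303 (blue circles) and S288C (orange squares), with the first 20 kb shaded. The tRNA genes are lowest in the first bin and high in the second, and the S288C origins are highest in the first 2 bins, at 5.00 and 5.63 per 100 kb.

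ARS features of the W303 annotation are matches to 8 words of 11 letters, variants of the origin consensus, and not mapped origins. Those in the windows have no strand, and the supplementary methods do not say whether both strands were searched. The windows held 16 of 277 nuclear matches, with 4 at CEN13 and none at CEN3, CEN5, CEN6, CEN7, CEN11 and CEN15. Density was 2.50 ± 2.74 per 100 kb in the windows and 1.90 ± 0.838 in the arms (SD, n = 16, permutation p = 0.442, adjusted p = 0.781). Without chromosome 13 the difference was 0.0955 per 100 kb, against 0.603 with it. A match lay inside a centromere feature at CEN2 (TTTTATGTTTT, 240093 to 240104) and at CEN9 (TTTTATATTTT, 346157 to 346168). These spans are those of the ARS features, which have 12 bp, while the words have 11 letters. These words start at base 88 of CEN2 and base 14 of CEN9 in W303, and in the S288C sequences printed above they start at the same bases. Over both strands, 5 of 16 S288C centromeres held 1 of the 8 words, against 0.487% of genome windows of 118 bp. These windows were not matched for A and T content, in which the words are rich. That content is 61.7% in the nuclear genome and at least 86.9% in CDEII, and its part in the difference was not tested.

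Annotated origins of replication in S288C gave a different count. The S288C windows held 34 of 352 nuclear origins, and each of the 16 windows had between 1 and 3. Density was 5.31 ± 1.80 per 100 kb in the windows and 2.79 ± 0.663 in the arms, higher on 15 of 16 chromosomes, with a difference of 2.52 ± 0.460 (SE, permutation p = 0.000275, adjusted p = 0.00275). The difference passed the threshold with each chromosome left out, at 2.35 to 2.77 per 100 kb. With all chromosomes and windows of 20000 bp, 3 of 10 S288C comparisons passed, those of origins, tRNA genes and ORF coverage, and none of the 11 in W303. The nearest annotated origin lay between 187 bp (CEN3) and 12828.5 bp (CEN4) from the centromere, with a median of 6681 bp, and within 10 kb at 11 centromeres.

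TKP/TY features are coding parts of Ty retrotransposons. The windows held 5 of 86, which are 2 at CEN1, 2 at CEN2 and 1 of 4041 bp beside CEN6, and the other 13 windows had none. Their density was 0.781 ± 1.76 per 100 kb in the windows and 0.653 ± 0.412 in the arms (SD, n = 16, adjusted p = 0.852). Each lay in the same stretch between ORFs as a tRNA gene: the alanine gene between SEN34 and BUD14 at CEN1, the serine gene between PDR3 and UTP20 at CEN2 and the asparagine gene between MSH4 and SPB4 at CEN6. The 2 features of CEN1 (45 and 1323 bp) share 1 stretch, as do the 2 of CEN2 (2475 and 927 bp). The count is therefore of features, which need not be separate elements. In S288C, 4 windows held 1 mobile element each, those of CEN1, CEN2, CEN6 and CEN8. The CEN8 window of W303 held no TKP/TY feature.

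Of 68 genes for kinetochore, checkpoint, cohesin and condensin proteins 3 were members (4.41%), against 5.51% of all nuclear ORFs. Of the 53 genes for kinetochore proteins, the chromosomal passenger complex and the spindle checkpoint, none was one, and the nearest was DSN1, an outer kinetochore gene, at 20632 bp. None of 5 condensin, 17 Snf2 family and 18 tRNA synthetase genes was a member. Of 10 cohesin genes 3 were: MCD1, the mitotic kleisin, 4233 bp left of CEN4, SMC1, 12811 bp left of the CEN6 feature, and REC8, the meiotic kleisin, 14342 bp right of CEN16. SMC1 is no member when CEN6 is placed between DEG1 and LOC1. TOP1, the type I topoisomerase, lay 12410.5 bp left of CEN15, while TOP2 and TOP3 were no members. Of 9 genes of TFIIIC and TFIIIB, TFC3 lay 2143.5 bp left of CEN1 and TFC8 13050 bp left of CEN16. Members made up 2 of 134 ORFs of cytosolic ribosomal proteins (RPL14B and RPL14A) and 6 of 67 of mitochondrial ones (MRPL32, MRP4, MRP17, MRPL13, MRPL39 and MRP7). These counts are descriptions without a test.

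Budding yeast descends from an ancient whole-genome duplication that also doubled its centromeres, and the annotation notes name a surviving paralogue for a part of the ORFs. Such a paralogue was noted for 43 of 309 members (13.9%) and for 875 of 4297 arm ORFs (20.4%). Of the 43 members, 22 (51.2%) had a paralogue that was also a member, near another centromere. The notes are not complete, since PDR3 at CEN2, a regulator of drug resistance, carries none although the note of PDR1, 26.3 kb from CEN7, names it. Counting PDR3 as well gives 22 of 44 members (50.0%). Among 859 arm ORFs with a located paralogue the count was 12 (1.40%). These shares were not tested, since each pair contributes to a pair of windows. The arm share is also no independent baseline, since members paired with each other cannot be paralogues of arm ORFs. In S288C coordinates the count for ORFs in the windows was 22 of 42 (52.4%).

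The 22 members form 11 pairs, and these join 5 pairs of centromeres. CEN3 and CEN14 share 4 pairs, which are GBP2 and HRB1 (mRNA-binding proteins of nuclear export), the feature named YCL001W-B and DOM34, CIT2 and CIT1 (the peroxisomal and mitochondrial citrate synthases) and ADY2 and ATO2 (acetate and ammonium transport). CIT2 lay 7194 bp right of CEN3 and CIT1 1525 bp right of CEN14. CEN8 and CEN11 share 3 pairs, LAG1 and LAC1 (ceramide synthases), RPL14B and RPL14A, and OSH7 and OSH6 (oxysterol-binding proteins). LAG1 and RPL14B lay left of CEN8, as LAC1 and RPL14A did of CEN11, and both OSH genes lay on the right. CEN2 and CEN4 share NTH2 and NTH1, 1847 and 1581.5 bp to the right, and RCR1 and RCR2. CEN5 and CEN9 share YEA6 and YIA6 (mitochondrial NAD transporters), and CEN1 and CEN7 share ERP1 and ERP6 (p24 proteins of vesicle transport). In 10 of 11 pairs both genes lay on the same side of their centromere, and in 8 of the 9 pairs with 2 known strands they had the same strand. By the strand letter of the systematic name, which gives all 11 pairs a strand, 9 pairs had the same strand, and GBP2 (minus) and HRB1 (plus) differed as ERP1 and ERP6 did. ERP1 and ERP6 were the only pair on opposite sides, with ERP1 right of CEN1 on the minus strand and ERP6 left of CEN7 on the plus strand, so that both point at their centromere.

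**Figure D5:**
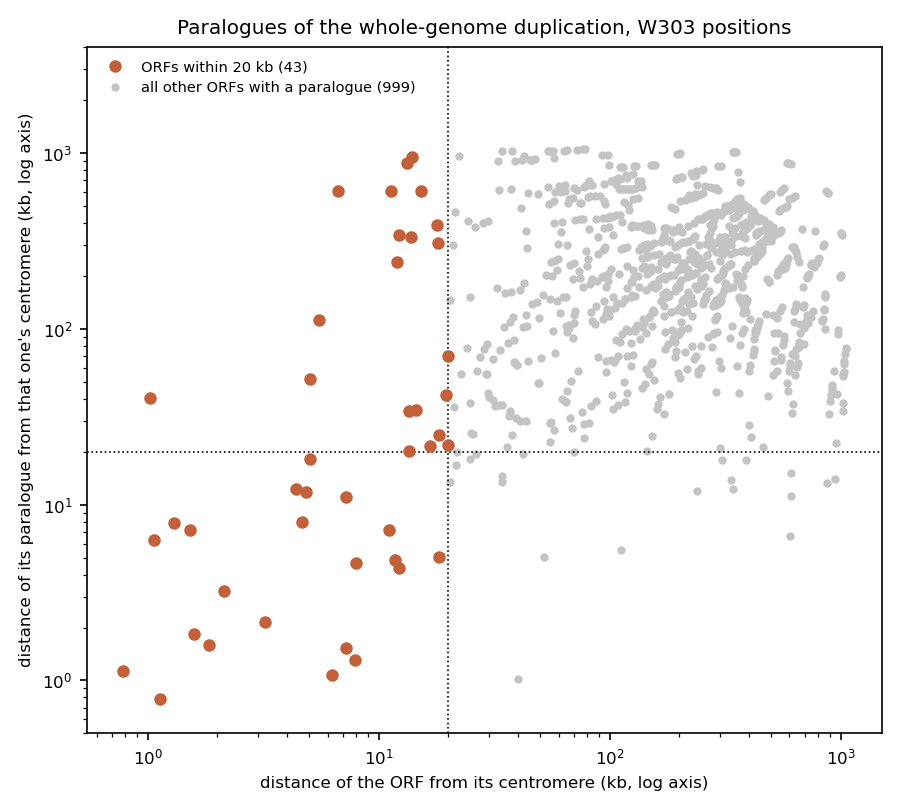
Distance of each ORF from its centromere (x axis, kb, log scale) against that of its whole-genome duplication paralogue (y axis, kb, log scale) in W303, with 43 members in orange, the 999 other ORFs in grey and dotted lines at 20 kb. The lower left corner holds the 22 members whose paralogue is a member, against 22 grey points in the lower right corner.

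Several other members had a paralogue a little further out. PLB1, a phospholipase gene 13497 bp right of CEN13, has PLB3 20264 bp left of CEN15. TIR2, right of CEN15, has TIR3 21891.5 bp left of CEN9. GRX6, left of CEN4, has GRX7, both glutaredoxins, 21511.5 bp right of CEN2. These pairs lay on opposite sides of their centromeres, unlike most pairs inside the windows. So did ERP2 and ERP4, YDL012C and YBR016W, and CCE1 and MRS1, also with the paralogue within 50000 bp. GAL3 and GAL1 lay on the same side. VTC2, in which the CEN6 feature lies, has VTC3 40250.5 bp from CEN16, both on the left. Within 50000 bp of a centromere lay the paralogues of 30 of the 43 members and of 62 of 859 arm ORFs. At CEN10 the paralogues of both duplicated members, LSO1 and TDH2 (glyceraldehyde-3-phosphate dehydrogenase), lay 342116 and 389445 bp from CEN7, and CEN12 had no member with a noted paralogue.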

How the data were processed

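ChIP-seq reads of the series were mapped by the authors to W303; the analysed file is the annotation they deposited for that genome, and its columns hold positions in bases (unit: other) and labels, with no counts or depth. Per the supplementary methods, ORFs came from the Yeast Genome Annotation Pipeline and BLASTn searches, centromeres from BLAST, and ARS features from a consensus search. For CEN5, described there as resembling its S288C counterpart little, the search used the elements CDEI and CDEIII. In the submitters' processing notes stand ChIPseeker, deepTools, bedtools, MACS2, SAMtools and BWA, with no version given. The tRNA exons of 1 gene were merged. For each of the 16 chromosomes a window value (20000 bp to either side) was set against the arms (over 50000 bp from centromere and ends) with the sign change test, 11 tests in all. Chromosomes of 1 genome are not replicates of a condition, so p-values describe this annotation. S288C (R64) was used in its own coordinates, its p-values were adjusted over 10 tests, and 3 of its 16 centromere sequences are printed. Members, gene lists and tests were chosen with earlier results of these data known. Genes named are the ORFs flanking centromeres, the 5 longest and 5 shortest members, the 3 just inside and outside 20000 bp, members whose name belongs to another arm, members of the fixed lists and the short features of the windows. Examples of size, introns, names, distances to S288C and paralogues were chosen after seeing values. The test was tested on simulated data. Alternatives changed window, arms, chromosomes, strand source, length statistic or annotation. Analyses used python 3.11.15, numpy 2.4.6, pandas 2.3.3, scipy 1.17.1 and matplotlib 3.10.9.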

Additional observations from a re-analysis of the deposited data

How the results depend on the processing

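All differences are windows minus arms, and none of the 11 passed an adjusted p of 0.05 as reported. Besides leaving out each chromosome in turn, 77 alternatives were run, among them the 11 comparisons without chromosome 6. Of the 77, 70 were counted as unchanged, 4 turned a direction and 3 crossed the threshold. Unchanged meant the same direction and side of the threshold. The alternatives for the share of members whose paralogue is a member have neither. They counted as unchanged when they lay inside a binomial confidence interval of the reported share. With windows of 10000 bp the median ORF length turned to 61.4 bp, TKP/TY density to -0.341 per 100 kb and tRNA density to -0.712 per 100 kb. Without chromosome 6, whose centromere feature is short, TKP/TY density turned to -0.0304 per 100 kb. With annotated origins of S288C in place of ARS matches the density difference was 2.52 per 100 kb, with an adjusted p of 0.00275, and the S288C annotation also took coverage past the threshold of the permutation test (-5.81 points, adjusted p = 0.0417) and tRNA density (1.85 per 100 kb, adjusted p = 0.0407). Leaving out S288C chromosomes, chosen after seeing the data, gave 2.35 to 2.77 per 100 kb for origins, -6.54 to -4.92 points for coverage and 1.49 to 2.22 per 100 kb for tRNA genes, the last 2 passing in 6 of 16 cases each. The cause of these changes was not tested. Leaving out each chromosome in turn gave 0.0220 to 0.169 ORFs per 10 kb for density, -5.35 to -3.98 percentage points for coverage, -50.1 to 20.9 bp for median length and 27.5 to 56.2 bp for gaps. It gave 0.490 to 3.08 points for the plus strand share, -3.26 to -0.933 for the share transcribed away and -7.46 to -4.94 for neighbours on the same strand. It gave -0.197 to 0.231 per 100 kb for TKP/TY, 0.0955 to 0.858 for ARS, -1.50 to 0.0357 points for size differences and 0.836 to 2.32 per 100 kb for tRNA genes. Median length turned without chromosome 3, 4 or 5, TKP/TY density without 1, 2 or 6 and the size share without 2, and coverage passed the threshold without 16. The share of members whose paralogue is a member was 51.2% as reported, 63.6% with windows of 10000 bp, 47.1% with 30000 bp, 52.4% in S288C and 50.0% with CEN6 between DEG1 and LOC1 or with a paralogue named by either ORF, alternatives chosen after seeing the data. No paired analysis was possible because the replicate numbers belong to libraries, which have no values in the annotation, and the tests pair only the window and the arms of a chromosome. A count of 16 windows limits what the tests can show, and W303 sequence was not used here.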
